A study of Rattus norvegicus with 3 samples.

Results

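The genes of mitosis and cytokinesis are described here in tendon stem/progenitor cells (TSPCs), a self-renewing cell population that can be grown out of tendon tissue. A list of 60 genes was taken, from the cyclins and kinases that start mitosis to the motors and scaffolds of the last cut between daughter cells, and a gene was measured where at least 1 probe set of the array named that gene and no other. This held for 53 of the 60, with 74 probe sets, out of 14216 genes and 31042 probe sets on the array. Cdc25c, Nek2, Cenph, Ndc80, Tpx2, Kif4a and Anln had no such probe set. Where a gene had several, the one with the highest mean signal over the arrays is its main probe set.

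The cells came from the Achilles tendon of rats aged 1 day (TSPCs-1d), 7 days (TSPCs-7d) and 56 days (TSPCs-56d), and no treatment separated the groups. All were polyclonal cultures in low glucose DMEM with 10% fetal bovine serum, used at passage 2, with tissue from 2 or more animals pooled at each age. The study names Sprague-Dawley rats for its tendon tissue, and the sex of the animals is not given in the sources used here. Total RNA of each culture was hybridized to 1 Affymetrix rat array, so there were 3 arrays and no age was repeated. Differences are given as ratios without p-values, since the spread between cultures of an age was not measured.

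In a dividing cell the transcripts of these genes accumulate late in the cycle and are low in a resting cell. Cdk1 bound to A- and B-type cyclins drives entry into mitosis, kinetochores then attach chromosomes to the spindle, the spindle checkpoint holds back the anaphase-promoting complex until all are attached, and the central spindle places the cleavage furrow. Many of the promoters carry a cell cycle genes homology region (CHR), bound by the DREAM and MuvB complexes, and CCAAT boxes, bound by NF-Y. In a culture, the share of cells that divide and the RNA of each dividing cell cannot be told apart.

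Promoter windows of 300 bases, from 250 before to 50 after the start of the gene, were read from RefSeq on GRCr8 for 47 of the 53 measured genes; Ccna2, Ube2c, Aurkb, Incenp, Cenpt and Racgap1 had no entry in the table. The CHR was searched as TTTGAA or TTCGAA and the CCAAT box as CCAAT, on both strands. A CHR was found in 34 of the 47 windows (72.3%), against 19.5% of all 27457 windows of the table. CCAAT was found in 35 of them (74.5%), against 37.7% of all windows. Both were found in 28 (59.6%), against 7.83% of all windows. An E2F site, searched as TTTCCCGC or TTTGGCGC or TTTCGCGC or TTTGCCGC, was found in 2 (4.26%), against 2.25% of all windows.

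In the member windows, CHR matches were most frequent just before the start of the gene, and CCAAT matches somewhat further upstream. In the last 50 bases before the start, 15 member windows (31.9%) held a CHR, against 2.99% of all windows. In the 50 bases upstream of those, 24 member windows (51.1%) held CCAAT, against 11.3% of all windows. CCAAT was in 21.3% of member windows in the last 50 bases before the start and in 27.7% in the 50 bases farthest upstream. A match describes letters only, and these data say nothing of which factor was bound.

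**Figure D1:**
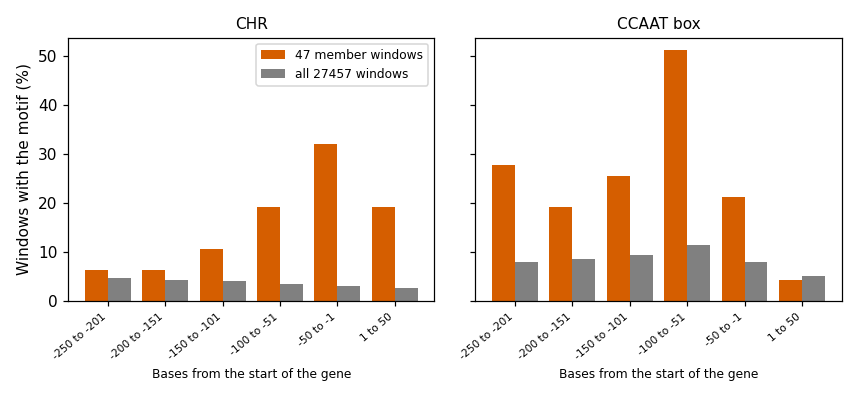
Share of promoter windows (%) with a CHR (left) or a CCAAT box (right) by distance from the start of the gene in bins of 50 bases, for 47 mitosis genes (orange) and all 27457 windows (grey). The member bars are tallest in the last 50 bases before the start for the CHR (31.9%) and in the bin upstream of that for the CCAAT box (51.1%).

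The 150 bases before the start are shown for 1 gene of each mitotic step that had both motifs in this stretch, for Cdc25b, which had the lowest ratio of TSPCs-56d to TSPCs-1d, and for Ncaph, whose window had neither motif. They read 5′ to 3′ on the strand of the gene, and capitals mark the CHR matches (TTTGAA or TTCGAA) and the CCAAT matches (CCAAT, or ATTGG on the other strand). In Cdca8 and Mki67 a CHR and a CCAAT match share 1 base, and both read as a single run of capitals. The positions on GRCr8 are chr20:19265143-19265292 (plus strand) for Cdk1, chr3:138860023-138860172 (plus) for Cdc25b, chr5:137255800-137255949 (minus) for Cdc20, chr5:142483200-142483349 (minus) for Cdca8, chr3:74396719-74396868 (minus) for Spc25, chr13:53625434-53625583 (plus) for Aspm, chr1:143659331-143659480 (plus) for Prc1, chr1:199952594-199952743 (minus) for Mki67 and chr3:134852503-134852652 (minus) for Ncaph. Each lies just upstream of the annotated start of the gene.
Cdk1: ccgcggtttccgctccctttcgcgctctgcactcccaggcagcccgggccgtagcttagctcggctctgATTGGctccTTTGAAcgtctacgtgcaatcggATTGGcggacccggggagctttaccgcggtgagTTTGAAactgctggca
Cdc25b: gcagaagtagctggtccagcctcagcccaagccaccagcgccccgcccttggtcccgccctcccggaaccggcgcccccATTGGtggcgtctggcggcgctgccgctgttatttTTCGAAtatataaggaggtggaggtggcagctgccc
Cdc20: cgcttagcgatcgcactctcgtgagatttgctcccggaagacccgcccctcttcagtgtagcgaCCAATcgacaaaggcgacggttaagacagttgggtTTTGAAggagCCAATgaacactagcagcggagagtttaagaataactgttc
Cdca8: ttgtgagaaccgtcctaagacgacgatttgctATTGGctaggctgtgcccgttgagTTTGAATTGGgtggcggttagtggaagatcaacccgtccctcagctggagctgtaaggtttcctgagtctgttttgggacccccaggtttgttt
Spc25: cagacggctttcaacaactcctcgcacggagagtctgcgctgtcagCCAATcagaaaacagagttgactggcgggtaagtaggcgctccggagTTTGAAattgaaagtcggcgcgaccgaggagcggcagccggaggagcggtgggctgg
Aspm: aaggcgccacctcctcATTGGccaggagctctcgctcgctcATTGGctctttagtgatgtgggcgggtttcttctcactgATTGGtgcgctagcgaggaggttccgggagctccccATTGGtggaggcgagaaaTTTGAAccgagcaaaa
Prc1: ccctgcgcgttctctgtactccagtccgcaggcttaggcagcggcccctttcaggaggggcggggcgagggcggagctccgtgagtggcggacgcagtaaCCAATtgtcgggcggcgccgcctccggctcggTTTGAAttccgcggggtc
Mki67: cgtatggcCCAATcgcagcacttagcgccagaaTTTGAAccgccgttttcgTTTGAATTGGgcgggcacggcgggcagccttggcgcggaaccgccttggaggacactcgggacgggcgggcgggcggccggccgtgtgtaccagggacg
Ncaph: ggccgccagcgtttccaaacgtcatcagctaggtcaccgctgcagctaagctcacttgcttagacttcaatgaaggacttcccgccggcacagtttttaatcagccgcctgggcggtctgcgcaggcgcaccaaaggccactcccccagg

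The mitosis genes had near equal signals in TSPCs-1d and TSPCs-56d and higher ones in TSPCs-7d. Signals are linear intensities, and ratios were taken only between arrays within a probe set, since the level of one probe set does not measure a gene against another. The median over the 53 genes was 304, 823 and 291 in order of age (TSPCs-1d, then 7d, then 56d, here and in what follows), while the median of all probe sets was 107, 108 and 114. The genes ranged from 51.2 to 1751 in TSPCs-1d, from 92.2 to 3961 in TSPCs-7d and from 55.3 to 1663 in TSPCs-56d. In their main probe sets, all 53 had their highest signal in TSPCs-7d. The mean that picks the main probe set includes the TSPCs-7d signal, so the choice itself favours probe sets that are high in that culture. None of these 53 probe sets had a signal under 48.9, the 25th percentile of all signals, below which a signal was called dim.

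**Figure D2:**
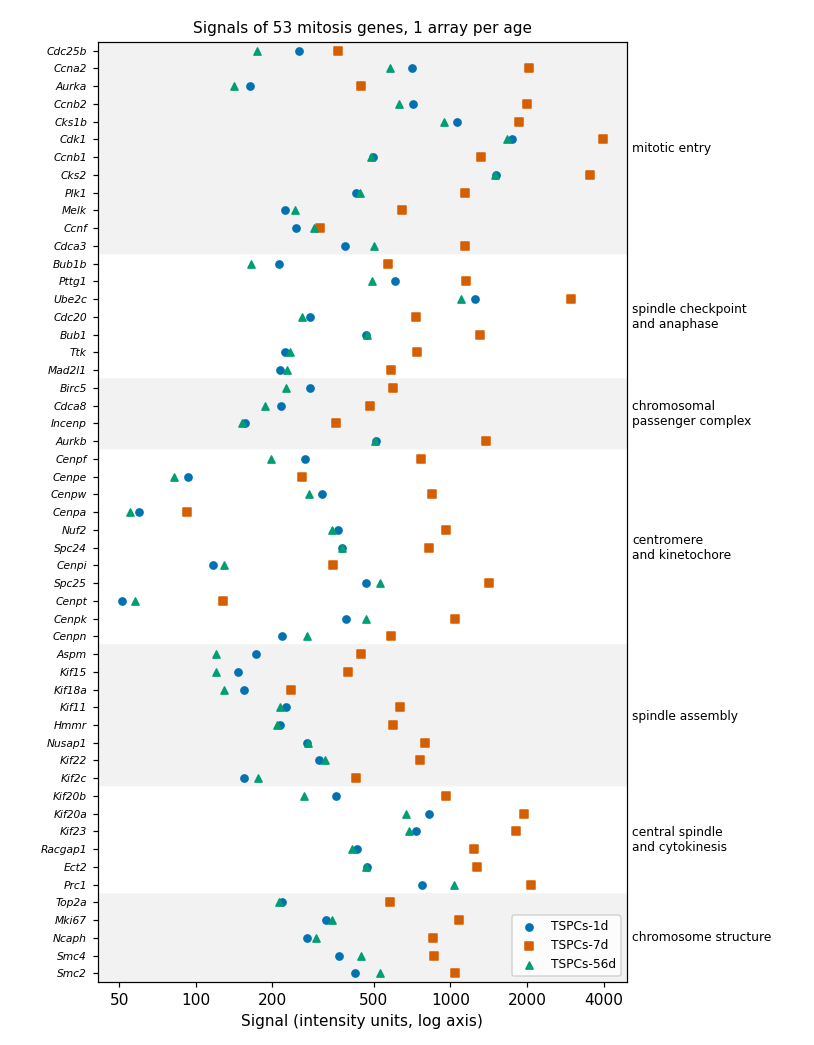
Signals of the 53 mitosis genes (log axis, intensity units) in TSPCs-1d (blue circles), TSPCs-7d (orange squares) and TSPCs-56d (green triangles), 1 array per age, grouped by mitotic step. The TSPCs-7d square lies to the right of both other points in every row, while circle and triangle lie close to each other.

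For TSPCs-56d vs. TSPCs-1d, the oldest and the youngest cultures, 0 of the 53 genes differed by more than 2-fold. Of all genes, 3.76% did so in either direction. With signals as deposited, 0 of the 53 differed by more than 1.5-fold, where 11.4% of all genes did. Of the 53, 38 lay within 1.2-fold, where 59.4% of all genes did. The ratios ran from 0.681 (Cdc25b) to 1.33 (Prc1), and the middle part of them, from the lower to the upper quartile, from 0.877 to 1.06. Over all genes the quartiles were 0.906 and 1.21. The median log2 ratio of the mitosis genes was -0.04, against 0.06 for all genes and 0.03 for genes above the median signal. In all, 21 ratios were above 1 and 32 below, and with each array divided by its median signal these counts became 13 and 40. That scaling moved the median over all genes from 0.06 to -0.04 and that over the mitosis genes to -0.13. It also took Cdc25b and Aspm, both lower in TSPCs-56d, past 1.5-fold, as did quantile normalization and loess centring.

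As a guide to the noise of a probe set, 1719 genes with 2 probe sets above the median signal were used. The log2 ratios of such a pair differed by a median of 0.17 for TSPCs-56d vs. TSPCs-1d, and 10% differed by more than 0.53. Only Cdc25b (-0.55) and Aspm (-0.53) of the 53 mitosis genes had a log2 ratio beyond that. This guide holds for probe sets on the same arrays and not for the spread between cultures, which was not measured.

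**Figure D3:**
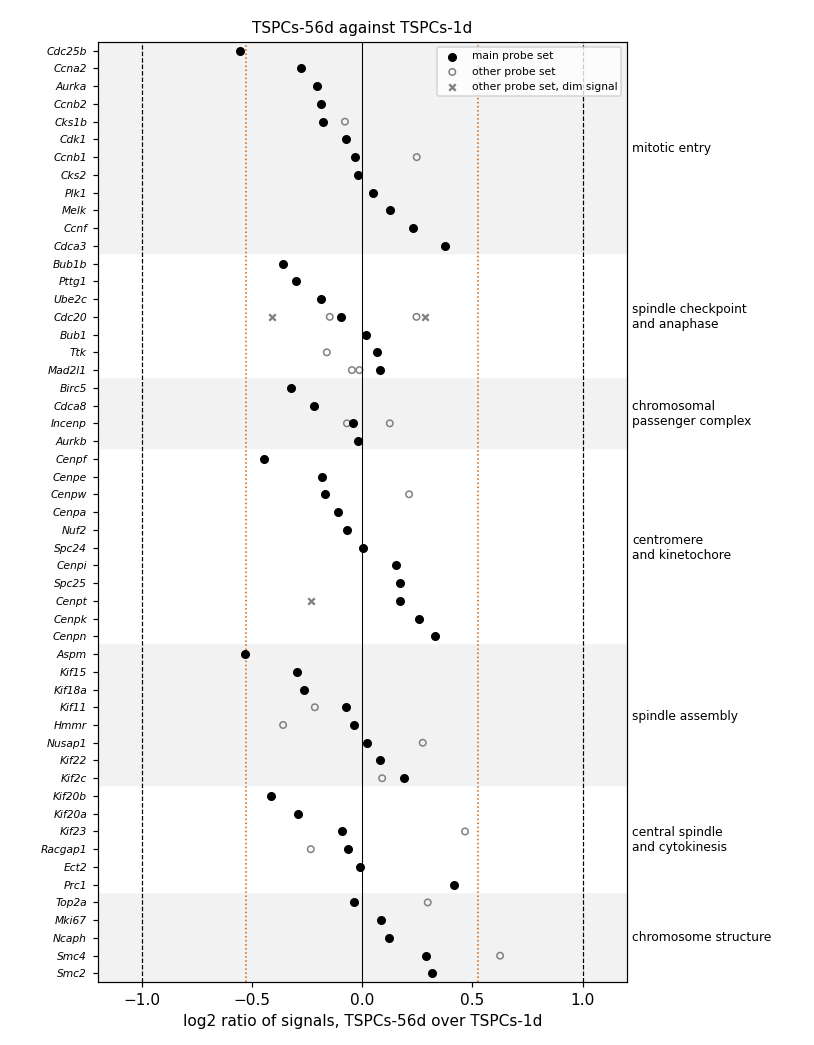
Log2 ratio of signals, TSPCs-56d over TSPCs-1d, for the main probe set of each of 53 genes (black) and for its other probe sets (open circles, or crosses where a signal was dim). Dashed lines mark 2-fold, and dotted lines mark 0.53, the difference that 10% of probe set pairs of a gene exceeded; all points lie inside the dashed lines.

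For TSPCs-7d vs. TSPCs-1d, 47 of the 53 ratios were above 2 and 0 below 0.5, where 1.87% of all genes had a ratio above 2. The ratios ran from 1.24 (Ccnf) to 3.33 (Mki67), with a median of 2.67 and quartiles of 2.36 and 2.80. Of the 53, 4 were more than 3-fold higher, namely Mki67, Ttk, Ncaph and Spc25. Ccnf, Cdc25b, Cks1b, Pttg1, Cenpa and Kif18a were those short of 2-fold.

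For TSPCs-7d vs. TSPCs-56d, 47 of the 53 ratios were above 2 and 0 below 0.5, where 2.10% of all genes had a ratio above 2. The ratios ran from 1.06 (Ccnf) to 3.88 (Cenpf), with a median of 2.70 and quartiles of 2.33 and 2.96, and 12 were over 3-fold. Just inside the cutoff lay Prc1 at 2.01, and just outside it lay Cks1b at 1.98, Smc2 at 1.97 and Smc4 at 1.93. Ccnf, Cenpa and Kif18a were the others short of it. Both comparisons use the TSPCs-7d array, so they are not independent of each other. The noise guide gave a 90th percentile of 0.39 for the first and 0.44 for the second, and 52 of the 53 log2 ratios were beyond it in each, all but that of Ccnf.

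The study itself listed 23 of the 53 genes as regulated on these arrays, so that their ratios are no independent evidence of a direction. It drew that list from transcripts more than 2-fold different in both comparisons of TSPCs-7d. That all 23 exceeded 2-fold was therefore fixed in advance. A probe set given here to Cks1b was also listed, as lower in TSPCs-7d and under another gene name. Cks1b is not counted among the 23. Of the 30 genes not counted as listed, 24 exceeded 2-fold against TSPCs-1d and 24 against TSPCs-56d, with median ratios of 2.67 and 2.66. These come from the same arrays and are no independent check.

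**Figure D4:**
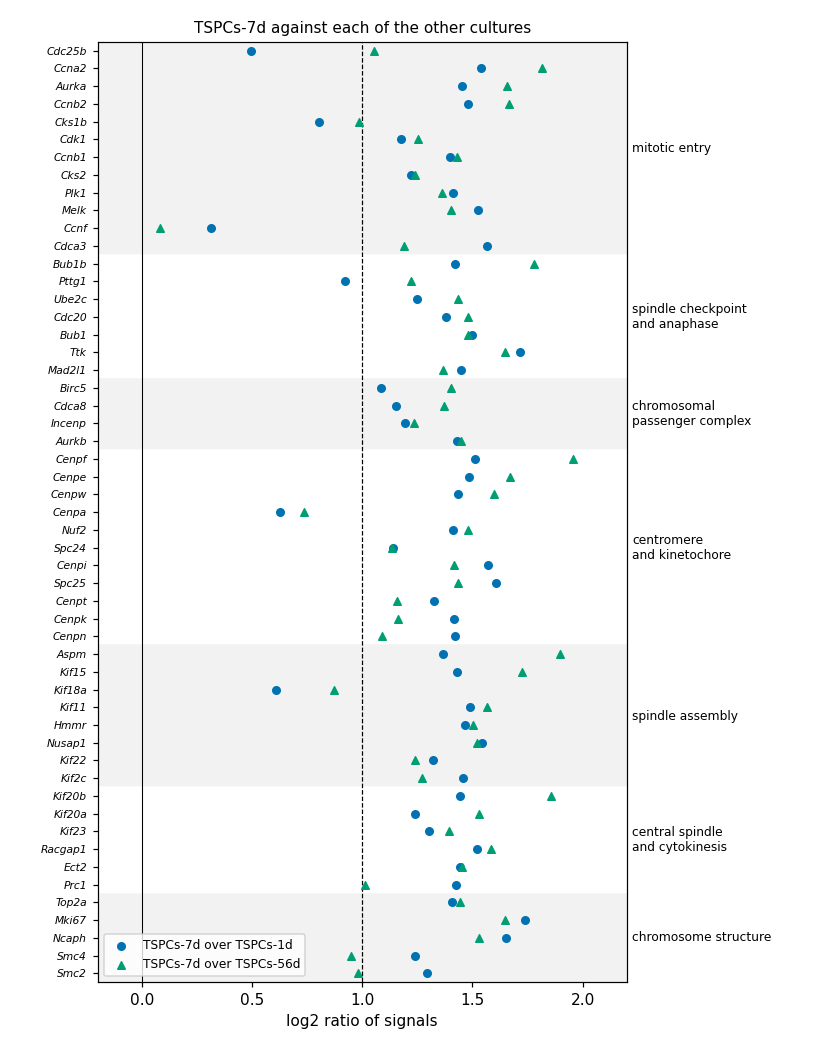
Log2 ratio of signals of TSPCs-7d over TSPCs-1d (blue circles) and over TSPCs-56d (green triangles) for 53 genes by mitotic step. The dashed line marks 2-fold; 47 circles and 47 triangles lie to its right and none lies left of 0.

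The signals of the genes with and without a CHR were set side by side. The 34 genes with a CHR had a median ratio of 2.66 for TSPCs-7d over TSPCs-1d, with 29 of them past 2-fold. The 13 without one had a median of 2.75, with 12 past 2-fold. For TSPCs-7d over TSPCs-56d the medians were 2.66 and 2.70, and for TSPCs-56d over TSPCs-1d they were 0.965 and 1.00. Ncaph, with neither motif, gave signals of 272, 855 and 296, and Mki67, with both, gave 324, 1079 and 344.

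The genes of mitotic entry, 12 of them measured, had a median ratio of 0.964 for TSPCs-56d over TSPCs-1d. The medians were 2.65 for TSPCs-7d over TSPCs-1d, with 9 past 2-fold, and 2.48 over TSPCs-56d, with 10 past it. Cdk1, the kinase that starts mitosis, gave 1751, 3961 and 1663. Its cyclin partners were likewise highest in TSPCs-7d. Ccna2, cyclin A, gave 703, 2041 and 579.8, and was 2.90-fold and 3.52-fold higher in TSPCs-7d. Ccnb1 and Ccnb2, the B-type cyclins, gave 498, 1313 and 487, and 715, 1993 and 627. The small Cdk-binding protein Cks2 gave 1512, 3525 and 1494.

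Cdc25b, a phosphatase that removes the inhibitory phosphates from Cdk1, had the lowest ratio of TSPCs-56d to TSPCs-1d among all 53 genes. Its signals were 255, 360.3 and 174, so that TSPCs-56d was 1.47-fold lower than TSPCs-1d and TSPCs-7d 1.41-fold higher than TSPCs-1d. Cdca3, an F-box-like protein that promotes mitotic entry, lay at the other end of the step with 386, 1142 and 501, a ratio of 1.30. Plk1, which acts on centrosomes, kinetochores and the furrow, gave 427, 1135 and 441. Aurka, the centrosomal Aurora kinase, gave 163, 447 and 142, and the kinase Melk gave 224, 646 and 244. Ccnf, an F-box protein that marks other proteins for degradation, had the smallest ratios of TSPCs-7d to both other cultures, with 248, 308 and 291.

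Of the spindle checkpoint and anaphase genes, all 7 were measured, and their median ratio of TSPCs-56d to TSPCs-1d was 0.934, from 0.779 to 1.06. TSPCs-7d was more than 2-fold above TSPCs-1d for 6 (median 2.68) and above TSPCs-56d for 7 (median 2.79). The checkpoint kinase Ttk gave 224, 736 and 235, and Bub1, which recruits checkpoint proteins to kinetochores, gave 464, 1309 and 469. Bub1b, part of the complex that inhibits Cdc20, had the lowest ratio of TSPCs-56d to TSPCs-1d in the step, with 211, 566 and 165. Mad2l1, which binds Cdc20 in the same complex, had the highest, with 215, 586 and 227. Downstream of the checkpoint, Ube2c, the ubiquitin-conjugating enzyme of the anaphase-promoting complex, gave 1251, 2972 and 1098. Cdc20, which activates that complex, gave 281, 731 and 262. Pttg1, the securin that is degraded to release separase, gave 606, 1147 and 492, and was the gene short of 2-fold between TSPCs-7d and TSPCs-1d, at 1.89.

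All 4 genes of the chromosomal passenger complex were measured. This complex of a kinase and its scaffold corrects faulty attachments at centromeres and then moves to the central spindle. The signal of TSPCs-7d exceeded that of either other culture by more than 2-fold for all 4, with medians of 2.25 and 2.61. Aurkb, its kinase, gave 510.3, 1375 and 504, and Incenp, the scaffold, gave 156, 356 and 152. Birc5 (survivin), which brings the complex to the centromere, gave 282, 597 and 226, the lowest ratio of TSPCs-56d to TSPCs-1d in the group at 0.800. Cdca8 (borealin) gave 217, 482 and 186. The 4 ratios of TSPCs-56d to TSPCs-1d ran from 0.800 to 0.987, all below 1 as deposited and under median scaling, quantile normalization and loess centring, while the mean over probe sets put 1 above 1 and 3 below, and the 6 single probe sets 1 above and 5 below. Their median log2 ratio was -0.13 as deposited and -0.22, -0.20 and -0.21 under the 3 scalings, on either side of the median difference of 0.17 between probe sets of a gene.

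At the centromere and kinetochore, 11 genes were measured. The median ratio of TSPCs-56d to TSPCs-1d was 1.00, with 6 ratios above 1 and 5 below, and the median log2 ratio turned to -0.09, -0.01 and -0.01 with median scaling, quantile normalization and loess centring. TSPCs-7d was more than 2-fold higher for 10 of the 11 in each comparison, with a median of 2.67 in both. The exception was Cenpa, the histone variant that marks centromeric chromatin, with 59.7, 92.2 and 55.3. All 3 of its signals lay under 110.1, the median of all signals.

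The inner kinetochore genes Cenpi, Cenpk, Cenpn, Cenpt and Cenpw encode parts of the network that sits on centromeric chromatin throughout the cycle. Cenpn, which recognizes Cenpa nucleosomes, had the highest ratio of TSPCs-56d to TSPCs-1d, with 218, 582 and 273. Cenpk gave 389, 1040.5 and 465, Cenpi 116, 346 and 129, and Cenpt 51.2, 128 and 57.7. Cenpw, the histone-fold partner of Cenpt, gave 312, 842 and 278. Of these 5, only Cenpw had a ratio below 1 in its main probe set. Its other probe set had one above 1, while the other probe set of Cenpt, which was dim, had one of 0.852.

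The outer kinetochore genes Nuf2, Spc24 and Spc25 belong to the Ndc80 complex, which grips microtubules. Spc25 gave 467, 1423 and 526, and Spc24 373, 823 and 374. Nuf2 gave 360.4, 959.9 and 344. Cenpf, a large coiled-coil protein of the outer kinetochore, had the lowest ratio of TSPCs-56d to TSPCs-1d in the step, at 0.734, and the highest of all 53 genes between TSPCs-7d and TSPCs-56d, at 3.88, with signals of 268, 765 and 197. Cenpe, a kinesin that carries chromosomes to the equator, gave 93.2, 261 and 82.0.

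Among spindle assembly genes, 8 were measured, with a median ratio of 0.962 for TSPCs-56d over TSPCs-1d. TSPCs-7d was more than 2-fold higher for 7 in each comparison, with medians of 2.72 and 2.85. Aspm, which focuses microtubules at the spindle poles, gave 173, 446 and 119.7, so that TSPCs-56d was 1.44-fold lower than TSPCs-1d. Kif11 and Kif15, kinesins that push the poles apart, gave 226, 633 and 214, and 147, 395 and 119.5. Kif2c, which takes microtubules apart at their ends, had the highest ratio of TSPCs-56d to TSPCs-1d, with 154, 424 and 176. Kif22, a kinesin of chromosome arms, gave 304, 759 and 321, and Nusap1, a microtubule-bundling protein, gave 273, 794 and 277. Hmmr, a spindle protein also known as a hyaluronan receptor, gave 214, 593 and 209. Kif18a, which limits the length of kinetochore microtubules, was the gene short of 2-fold, with 155, 236 and 129.

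For the central spindle and cytokinesis, 6 genes were measured, and their median ratio of TSPCs-56d to TSPCs-1d was 0.947. In the main probe sets 5 of 6 ratios were below 1, and with the mean over probe sets 4 were. The second probe set of Kif23 had a ratio of 1.38. TSPCs-7d was more than 2-fold higher for all 6 in both comparisons, with medians of 2.70 and 2.81. Prc1, which bundles the antiparallel microtubules of the midzone, was the exception among the main probe sets. It had the highest ratio of TSPCs-56d to TSPCs-1d of the 53 genes, with 772, 2075 and 1029.9. Kif20b, a kinesin of late cytokinesis, had the lowest such ratio in the step, with 354, 961 and 266. Kif20a, which carries the passenger complex to the midzone, gave 822, 1942 and 672. Kif23 and Racgap1, which together form centralspindlin, gave 735, 1813 and 689, and 431, 1234 and 412. Ect2, the exchange factor that activates RhoA at the furrow, gave 469, 1277 and 466.

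All 5 chromosome structure genes were measured. They had the highest step median for TSPCs-56d over TSPCs-1d, a ratio of 1.09 with 4 of 5 above 1 (3 of 5 with median scaling), and a log2 median of 0.12 that ran from 0.02 to 0.29 over the alternatives. Smc2 and Smc4, the ATPase pair of the condensins, gave 423, 1037 and 526, and 364, 858 and 444, with ratios of 1.24 and 1.22. These were also the genes of the step short of 2-fold between TSPCs-7d and TSPCs-56d. Ncaph, the kleisin that closes the condensin ring, had a ratio of 1.09. Top2a, the topoisomerase that untangles sister chromatids, gave 218, 579 and 213. Mki67 (Ki-67), which coats mitotic chromosomes and serves as a marker of dividing cells, had the highest ratio of the 53 genes between TSPCs-7d and TSPCs-1d.

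Other probe sets of the same genes were read where they existed. In 37 genes there was 1 probe set, and in the remaining 16 there were 21 beside the main one. Of these 21, 0 differed by more than 2-fold between TSPCs-56d and TSPCs-1d. For TSPCs-7d over TSPCs-1d, 10 were more than 2-fold higher, 18 had a ratio above 1 and 1 was more than 2-fold lower, and over TSPCs-56d these counts were 10, 17 and 1. In each comparison 1 of the 10, a probe set of Cdc20, was dim on every array. The choice of the probe set with the highest mean signal therefore bears on the count of 47, which was 43 and 41 in the comparisons with TSPCs-1d and TSPCs-56d when the log2 ratios of a gene's probe sets were averaged. The other probe sets of a mitosis gene differed from its main one by a median of 0.25 in log2 ratio for TSPCs-56d over TSPCs-1d, 0.57 for TSPCs-7d over TSPCs-1d and 0.43 for TSPCs-7d over TSPCs-56d. Over the 13 of the 21 above the median signal, as in the 1719 genes of the noise guide, these medians were 0.28, 0.33 and 0.16, against 0.17, 0.14 and 0.14 in the guide.

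In 6 genes, 8 probe sets differed from the main one by more than 1 in log2 ratio. The second probe set of Cks1b gave 431, 139 and 408, against 1064, 1858 and 939.6 in the main one, so their directions were opposite. The platform's table gives both to Cks1b, whereas the study's own annotation gave the second to a predicted similar gene, so its identity is uncertain. The study listed this second probe set as lower in TSPCs-7d, and its ratios here were 0.322 over TSPCs-1d and 0.340 over TSPCs-56d. The main probe set of Cdc20 and a second one are both of the kind shared between transcripts. The second gave 353, 493 and 418, and its mean signal of 421 was close to the 425 of the main one. A further one gave 64.3, 63.0 and 58.0, and stands for Cdc20 when shared probe sets are left out. Its ratios for TSPCs-7d were 0.980 over TSPCs-1d and 1.09 over TSPCs-56d, so that Cdc20 then fell short of 2-fold. The remaining 2 had dim signals. Of these, 1, with 10.9, 23.3 and 8.22, differed from the main one by at most 0.31 in log2 ratio. For Nusap1 the second gave 346, 510.0 and 419, again with a mean close to that of the main one, 425 against 448. In both Cdc20 and Nusap1 this second probe set was brighter than the main one in TSPCs-1d and in TSPCs-56d. Only through its TSPCs-7d signal did the main one have the higher mean. The second ones fell short of 2-fold, with ratios of TSPCs-7d over TSPCs-1d of 1.40 for Cdc20 and 1.47 for Nusap1. Kif23 gave 197, 263 and 272 in its second, and Incenp 84.9, 98.7 and 92.5. The second of Cenpt was dim in all 3 arrays, with 42.4, 32.1 and 36.1.

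In 8 genes every probe set passed 2-fold for TSPCs-7d over TSPCs-1d. Mad2l1 had 3, with ratios of 2.73, 2.54 and 2.79 for TSPCs-7d over TSPCs-1d. Ccnb1, Ttk, Cenpw, Hmmr, Racgap1, Smc4 and Top2a had a second probe set that also passed 2-fold for TSPCs-7d over TSPCs-1d. That of Smc4, with 209, 569.9 and 323, had the largest ratio of TSPCs-56d to TSPCs-1d among all member probe sets, at 1.54.

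**Figure D5:**
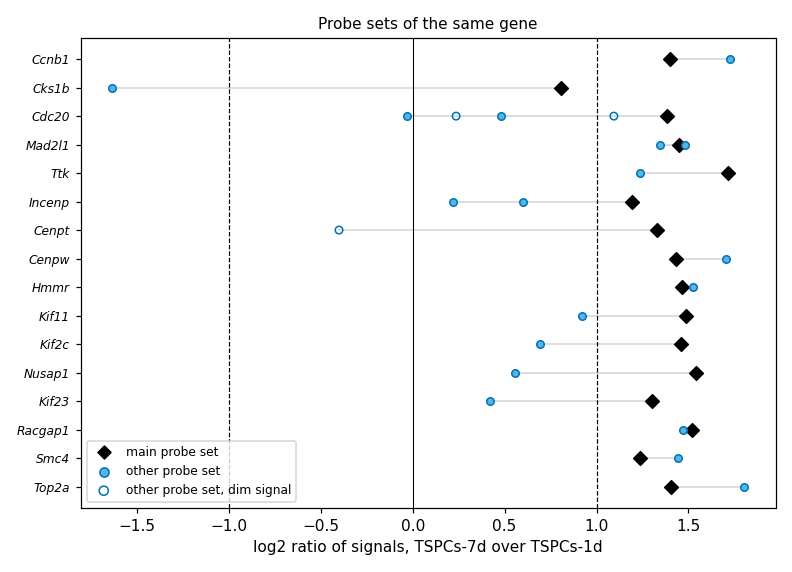
Log2 ratio of TSPCs-7d over TSPCs-1d for every probe set of the 16 genes with several, the main one as a diamond and the others as circles, open where a signal was dim. Dashed lines mark 2-fold; the second probe set of Cks1b lies at -1.64, the only point left of the lower line.

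A wider list of 68 other mitosis genes, of which 58 were measured, was read in the same way. For TSPCs-56d vs. TSPCs-1d, 1 was more than 2-fold higher and 0 lower, with a median ratio of 1.09. Over all genes, 2.00% were higher and 1.77% lower, so a count of 1 among the 58 is near that share. The gene was Plk4, the kinase that starts centriole duplication, with 150.2, 563 and 381. For TSPCs-7d vs. TSPCs-1d, 34 were more than 2-fold higher and 0 lower, with a median of 2.21, where 1.87% of all genes were higher. After Plk4 (3.75), the highest ratios were those of Knl1, the kinetochore scaffold (3.55), Esco2, a cohesin acetyltransferase (3.31), and Depdc1 (3.29). Against TSPCs-56d, 30 passed 2-fold upward in TSPCs-7d and 0 downward, with a median of 2.03, where 2.10% of all genes passed it upward. The highest were Pimreg (3.48), Depdc1 (3.29), Ncapd2, a condensin subunit (3.28), and Tacc3, a spindle protein (3.22). Zwint, a kinetochore protein, was the 1 of the 58 with its lowest signal in TSPCs-7d, with 1982, 1402 and 1473.

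Other parts of the mitotic machinery had no gene past 2-fold, which is near the few percent of all genes given above for the same comparisons. The 15 subunits and activators of the anaphase-promoting complex had 0 past 2-fold in any comparison, with median ratios of 0.977 for TSPCs-56d over TSPCs-1d, 1.08 for TSPCs-7d over TSPCs-1d and 1.15 for TSPCs-7d over TSPCs-56d. The 10 core cohesin and loader genes, which hold sister chromatids together, also had 0 past 2-fold, with medians of 0.955, 1.16 and 1.25. Within them the core ring subunits Smc1a, Smc3 and Rad21 had log2 ratios of 0.59, 0.53 and 0.61 for TSPCs-7d over TSPCs-1d, beyond the 0.39 of the noise guide, and 0.73, 0.58 and 0.44 over TSPCs-56d. Tubulin genes, 8 measured, had 0 past 2-fold and medians of 1.06, 1.03 and 1.11. Tuba4a, an alpha-tubulin, ran the other way and was 1.76-fold lower in TSPCs-7d against TSPCs-56d, with 511, 434 and 765. The 7 measured reference genes likewise had 0 past 2-fold, with medians of 1.02, 0.972 and 0.929.

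The labelled cell type was checked against marker genes. Tendon and stromal markers lay above the median of all signals in all 3 cultures, among them Scx (2255, 2578 and 2569), while Tnmd, a marker of mature tendon cells, gave 543, 351 and 158. Of 8 leukocyte markers, 4 were dim on every array, and their summed signal was 645, 573 and 707. Ptprc, the common leukocyte antigen, gave at most 30.6, whereas Aif1 gave 209, 188 and 267, Cd74 143, 114 and 127 and Cd68 122, 109 and 143, mostly above the median of all signals. The summed signal of 5 endothelial markers was 244, 251 and 268, with Pecam1 dim throughout. That of 6 muscle markers was 387, 379 and 423, with only Myod1 dim throughout. Ckm (102, 118 and 127) and Myh3 (112, 96.2 and 84.2) passed the median of all signals on at least 1 array. The 3 Schwann cell markers summed to 770, 809 and 1329. Of these, S100b gave 530, 535 and 1000.4 and Mbp 190, 216 and 264, both above the median of all signals on every array. Sox10 stayed below that median. None of these sums was highest in TSPCs-7d, but each sum mostly follows its brightest genes. Of the single leukocyte, endothelial, muscle and Schwann cell markers, Emcn (29.7, 39.7 and 37.9), Kdr (84.9, 85.2 and 83.8) and Myog (44.6, 56.0 and 54.8) were highest in TSPCs-7d. The part of other cell types in the mitosis signals was not tested.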

How the data were processed

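Total RNA of 3 TSPC cultures was measured on Affymetrix rat arrays, 1 for each age. The authors' methods name MAS5 and RMA for normalization and summarization. The submitters' processing notes list only MAS5, and which of them made the values is not stated. The deposited unit is a linear intensity (signal) for each of 31042 probe sets, with a lowest value of 1. Values were used as deposited.

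The platform's table gave 1 gene to 20826 probe sets, several to 436 and none to 9780. Each of 14216 genes (case ignored) was represented by its probe set of highest mean signal. Ratios were formed between arrays with a cutoff of 2, and lists were described by counts and medians. Of the members, the highest, lowest and brightest of each step were to be named, and any could be. In other lists, up to 4 genes past 2-fold were named; Zwint, Smc1a, Smc3, Rad21, Tuba4a and the cell type markers were named after their values were seen. Members and lists were chosen with earlier results of these data known. The number of arrays limits the precision. Alternatives covered scaling, low signals, probe sets and cutoffs (1.5 and 3). The calculation was tested on simulated data. The software was numpy 2.4.6, pandas 2.3.3, statsmodels 0.14.6 and matplotlib 3.10.9 under Python 3.11.15.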

Additional observations from a re-analysis of the deposited data

How the results depend on the processing

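The count of mitosis genes past 2-fold between TSPCs-56d and TSPCs-1d was 0 under every alternative for scaling, low signals and probe sets. At cutoffs of 1.5-fold and 3-fold it was 0 for the main probe sets with signals as deposited. The 0 at 1.5-fold did not hold under median scaling, quantile normalization or loess centring, where Cdc25b and Aspm passed it. As deposited, the second probe set of Smc4 also passed 1.5-fold. The count higher in TSPCs-7d ran from 43 to 57 against TSPCs-1d and from 41 to 57 against TSPCs-56d with the cutoff at 2-fold, the 57 being out of 74 probe sets. At a 3-fold cutoff the counts were 4 and 12. With all probe sets, 1 was more than 2-fold lower against TSPCs-1d and 1 against TSPCs-56d, in each case the second of Cks1b. Of the step medians (log2) of TSPCs-7d over TSPCs-1d, that of spindle assembly moved from 1.44 to 1.27 with a pseudocount of 32 and to 1.26 with the mean over probe sets. That of chromosome structure moved from 1.41 to 1.60 with the mean over probe sets and to 1.65 without probe sets shared between transcripts. For TSPCs-7d over TSPCs-56d, the kinetochore median moved from 1.42 to 1.24 with a floor at the median signal and to 1.23 with the pseudocount, and the spindle assembly median from 1.51 to 1.30 with the mean over probe sets. The other 233 medians stayed within the median difference between probe sets of a gene, and no median of 1 or more changed sign. Raised to the median signal, Cenpa lost its ratio (0.00) and Cenpt kept 0.22 in log2, since their signals are low. No paired analysis was possible because there was 1 array per age. A difference between cultures of the same age was not measured, and signals near the dim limit give ratios of little precision.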
